A study of Mus musculus with 2 samples.

Results

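Mouse chromosome 9 carries 132 of the 21938 protein-coding genes of the annotation used here as olfactory receptor genes, that is, protein-coding genes of GENCODE M21 on chromosome 9 with a symbol beginning with Olfr. A further 1003 such genes lie on other chromosomes, and 1078 other protein-coding genes share chromosome 9. The rule for choosing them is written in terms of names and positions. Per the labels, the assay was ATAC-seq, where a transposase cuts and tags accessible DNA, and the cells were primary T-helper 1 cells from mice of strain C57BL/6NJ, for which a protocol of CD4+ T cell differentiation is cited. There was 1 group of 2 biological replicates, with no second condition, genotype or named treatment, the age recorded as unknown and the sex as not collected. Both replicates carry the same donor identifier and separate biosamples, and whether separate animals were used is not stated, so differences between them measure only the spread between these 2 samples. Each replicate is a list of open regions with a signal value per region, the authors' own enrichment value, and values are given for replicate 1 first. A region is called shared when the lists overlap by at least 1 bp. Coordinates are mm10.

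Olfactory receptors are G protein-coupled receptors of the nose. Each olfactory sensory neuron uses 1 allele of 1 receptor gene, while the rest of the family is held in compact chromatin marked by methylation of histone H3 at lysine 9. In those neurons Lhx2, Ebf factors and the adaptor Ldb1 bring distant enhancers together at the chosen gene. The cells had the open starts of their label. A shared region lay within 1 kb of a transcript start of 9 of 9 T cell markers and 6 of 6 T-helper 1 markers. The share over all protein-coding genes was 65.9%. Among the markers were Cd3e (signal 9.06 and 9.71) and Tbx21, the gene of T-bet (5.48 and 5.65). The lowest signal among them was at Cd4 (2.29 and 2.33). The lists covered chromosomes 1 to 19, X and Y with 98786 and 91403 regions, of which 5544 and 5093 lay on chromosome 9, where 4712 shared regions were found. The median signal on chromosome 9 was 6.13 (interquartile range 3.88 to 9.97) and 6.41 (4.15 to 10.1). The number of reads is not in the lists, so depth is unknown, and a region that falls short of the authors' threshold is not listed. In a bulk sample, a site open in fewer cells and a site less open in each cell cannot be told apart.

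The 132 genes formed 2 clusters, taking gaps of at most 200 kb between neighbours. Cluster 1 ran from Olfr24 to Olfr18 (chr9:18751507-20336094, 1.58 Mb) and held 37 of the genes with 1 other protein-coding gene, the zinc finger gene Zfp317. Cluster 2 ran from Olfr160 to Olfr986 (chr9:37708964-40190134, 2.48 Mb) and held 95 of them with 3 others, Vwa5a, AW551984 and Tmem225. A further 40 Olfr entries in these spans, 12 and 28, are not annotated as protein-coding and were not counted as members. The members do include Olfr839-ps1, Olfr896-ps1 and Olfr911-ps1, which are annotated as protein-coding although their symbols carry a pseudogene suffix. The genes were much alike in build: the coding length was 915 to 993 bp with a median of 936 bp, and in 122 of 132 (92.4%) the coding sequence lay in 1 exon. Only 14 (10.6%) had a single annotated exon, and the gene length ran from 930 to 26047 bp with a median of 5480 bp, the remainder being introns and untranslated exons. The genes lay on both strands, 88 of 132 on the plus strand.

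The sequence before the RefSeq starts of these genes is poor in CpG. The 250 bases before the RefSeq start (build GRCm38.p6, 5′ to 3′) are shown for 4 receptor genes at the ends of the range described next: Olfr986, the gene nearest to an open region; Olfr875 and Olfr876, on either side of a shared region outside any gene; and Olfr954, the gene farthest from any. They are followed by Zfp317, whose start inside cluster 1 was open. Capitals mark each CG pair, of which the printed stretches hold 1, 3, 1, 2 and 13 in that order. The stretches lie at chr9:40186829-40187078, chr9:37772387-37772636, chr9:37803639-37803888, chr9:39461183-39461432 and chr9:19621841-19622090, all on the plus strand. Each of the 4 receptor stretches lies inside the GENCODE span of its gene, and that of Zfp317 lies before its gene.
Olfr986: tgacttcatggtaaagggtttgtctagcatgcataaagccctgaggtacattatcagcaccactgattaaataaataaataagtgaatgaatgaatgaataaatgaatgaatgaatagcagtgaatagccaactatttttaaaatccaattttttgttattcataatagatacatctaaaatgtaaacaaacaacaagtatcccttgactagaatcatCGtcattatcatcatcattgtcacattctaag
Olfr875: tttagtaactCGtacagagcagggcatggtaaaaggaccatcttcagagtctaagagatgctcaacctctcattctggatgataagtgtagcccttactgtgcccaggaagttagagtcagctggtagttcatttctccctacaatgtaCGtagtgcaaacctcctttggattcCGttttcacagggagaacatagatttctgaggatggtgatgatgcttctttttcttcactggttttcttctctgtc
Olfr876: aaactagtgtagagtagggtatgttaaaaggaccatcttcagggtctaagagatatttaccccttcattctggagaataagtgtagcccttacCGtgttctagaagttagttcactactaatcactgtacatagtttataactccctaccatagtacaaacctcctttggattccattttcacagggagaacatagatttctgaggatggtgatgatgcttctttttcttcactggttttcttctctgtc
Olfr954: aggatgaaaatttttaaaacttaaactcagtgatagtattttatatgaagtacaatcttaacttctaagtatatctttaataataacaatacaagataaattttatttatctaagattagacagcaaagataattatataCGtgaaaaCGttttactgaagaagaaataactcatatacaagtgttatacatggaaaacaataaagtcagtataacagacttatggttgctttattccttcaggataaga
Zfp317: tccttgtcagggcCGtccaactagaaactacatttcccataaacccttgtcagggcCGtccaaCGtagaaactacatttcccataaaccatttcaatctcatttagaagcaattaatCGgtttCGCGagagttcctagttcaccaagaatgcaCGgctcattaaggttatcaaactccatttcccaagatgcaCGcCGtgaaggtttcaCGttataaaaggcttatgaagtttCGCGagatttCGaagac

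The last 74 bases of the Olfr875 and Olfr876 stretches are identical, and a region is counted at each gene by its own coordinates. RefSeq entries matched 109 of the 132 genes, with 110 promoters taken from 250 bases before to 50 bases after a RefSeq start. A RefSeq start can lie inside the GENCODE gene, so these promoters need not lie before the outermost GENCODE start. Their median GC content was 34.0% (24.7% at the lowest), beside 57.7% in 19215 promoters of other coding genes and 35.3% in 825 promoters of olfactory receptor genes elsewhere. The median ratio of observed to expected CpG was 0.107 on chromosome 9, 0.107 in the receptor genes elsewhere and 0.617 in other coding genes. No CpG at all was found in 39 of the 110 promoters (35.5%), against 33.3% of those elsewhere and 2.98% of those of other coding genes. Receptor promoters of chromosome 9 and of other chromosomes thus had the same median CpG ratio and nearly the same median GC content.

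**Figure D1:**
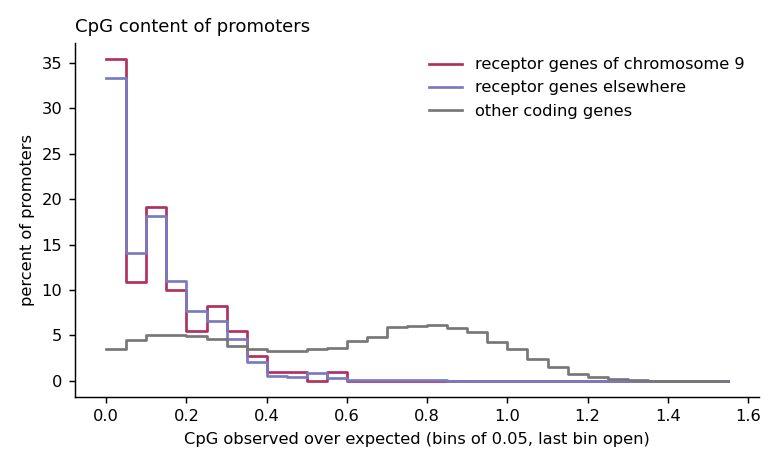
Share of promoters (vertical axis, percent) in each bin of CpG observed over expected (horizontal axis, bins of 0.05) for 110 promoters of chromosome 9 receptor genes, 825 of receptor genes elsewhere and 19215 of other coding genes. Both receptor lines peak in the first bin, and their medians of 0.107 lie far left of the 0.617 of other coding genes.

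No receptor gene of chromosome 9 had an open start. Of the 132 genes, 0 had a region within 1 kb of any annotated start in replicate 1, where 67.0% of all protein-coding genes had one, and 0 in replicate 2, where 66.3% had one. The count of shared regions was likewise 0, beside 65.9% of all protein-coding genes and 848 of the 1078 other coding genes of chromosome 9 (78.7%). No receptor gene had a region overlapping its body in either list, where 72.3% of all protein-coding genes had one in replicate 1 and 71.8% in replicate 2. A longer body has more room for a region, and these shares were not adjusted for gene length. The names of the regions include the words ASTARR, insert and masked. Which sequence was masked, and whether these are inserts meant for a reporter assay, is not stated, and the part of either in the counts and densities given here was not tested. The gene that came closest was Olfr986, whose nearest annotated start lay 4.64 kb from a region in replicate 1 and 4.78 kb in replicate 2.

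Regions were far away from most of the genes. The distance from a start to the nearest region had a median of 266 kb in replicate 1 (interquartile range 141 to 403 kb) and 249 kb in replicate 2 (124 to 374 kb). It exceeded 100 kb for 109 of 132 genes (82.6%) and for 105 (79.5%). It exceeded 500 kb for 18 genes in each replicate, and was longest for Olfr954, at 722 kb in both. The same distance was not computed for other genes. Of the 1078 other coding genes of chromosome 9, 92.7% and 92.9% held a region in the gene or within 20 kb of it. Within cluster 1 the distance ran from 37.3 kb at Olfr855 to 559 kb at Olfr835 in both replicates, with a median of 256 kb. In cluster 2 the median was 278 kb in replicate 1 and 248 kb in replicate 2. The replicates differed little at the extremes and by a small part of the range at the median. They differed more from Olfr145 (113 kb and 35.9 kb) to Olfr896-ps1 (427 kb and 358 kb) in cluster 2. The nearest region of these genes in replicate 2 was not listed in replicate 1, and Olfr878 lay 134 kb and 14.1 kb from a region.

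**Figure D2:**
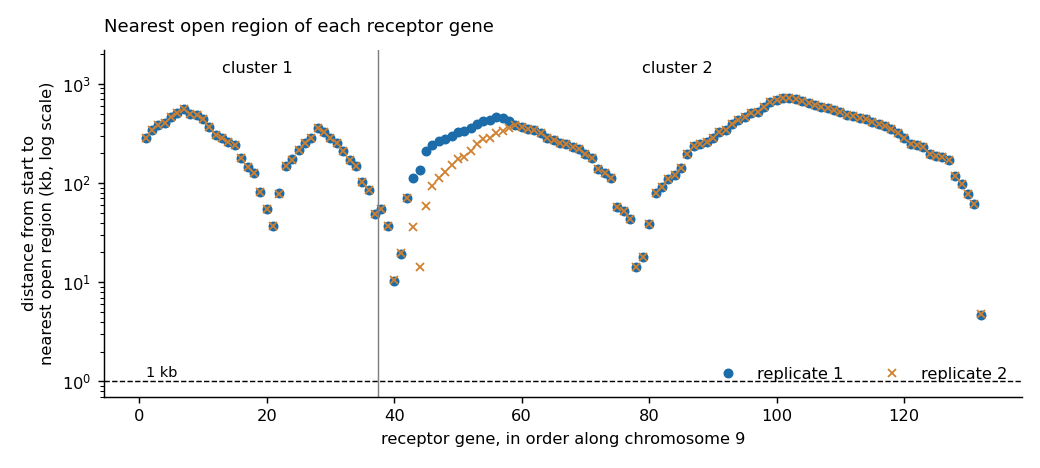
Distance in kb (log axis) from a start of each receptor gene to the nearest open region, with the 132 genes in order along chromosome 9, circles for replicate 1, crosses for replicate 2 and a dashed line at 1 kb. Every point lies above the line, the lowest at 4.64 kb, and the distances climb and fall between the few regions.

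A few genes at the edges of region-free stretches had a region within 20 kb. Counting the gene with 20 kb at each end, 5 genes (3.79%) held a region in replicate 1, where 80.8% of all protein-coding genes did, and 6 (4.55%) in replicate 2, where 80.4% did. A shared region was held by 5, beside 79.8% of all protein-coding genes. All 5 were in cluster 2 and none was in cluster 1. They rested on few regions, since windows of neighbouring genes overlap. Olfr986 (chr9:40180920-40190134) had 2 shared regions, both at Zfp202, a zinc finger gene beyond the cluster's end: the one at the Zfp202 start (signal 12.9 and 12.7) lay 1.58 kb and 1.73 kb from the receptor gene, and one in a Zfp202 intron (7.75 and 6.45) lay 16.2 kb and 16.3 kb away. Olfr919 (chr9:38696804-38703673) and Olfr920 (chr9:38752299-38760117) lay 14.2 kb and 17.8 kb from regions at starts of Vwa5a, which sits between them. Olfr875 (chr9:37771857-37774459) and Olfr876 (chr9:37803031-37808144) lay 8.57 kb and 19.3 kb from the same intergenic region. In replicate 2 alone, Olfr878 lay 10.2 kb from another intergenic region. For shared regions, the gene just inside the limit of 20 kb was Olfr876 at 19.3 kb, and those just outside were Olfr874 at 34.4 kb and Olfr855 at 35.8 kb. In replicate 2 alone, the gene just outside was Olfr145 at 29.1 kb, from the same region as Olfr878.

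The clusters held 6 regions in replicate 1 and 9 in replicate 2, and all 6 of replicate 1 were shared. Of the 6 shared regions, 5 lay in the 2 other coding genes with an open start. The region at the Zfp317 start (chr9:19621830-19622476 in replicate 1) had a signal of 16.4 and 16.1, above 97.4% and 97.7% of the regions of chromosome 9. A weaker one lay in a Zfp317 intron (chr9:19629380-19630231, signal 5.12 and 4.55). A start among the strongest of the chromosome thus lay between receptor genes that had no region at all. Vwa5a, which codes for a protein with a von Willebrand factor A domain, had 3 regions, each within 1 kb of one of its annotated starts. Their signals were 8.29 and 8.27 (chr9:38717836-38719492), 13.4 and 11.6 (chr9:38727987-38728760) and 16.6 and 16.0 (chr9:38733459-38734515). AW551984 and Tmem225 had no region in their bodies or within 1 kb of a start in either replicate.

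**Figure D3:**
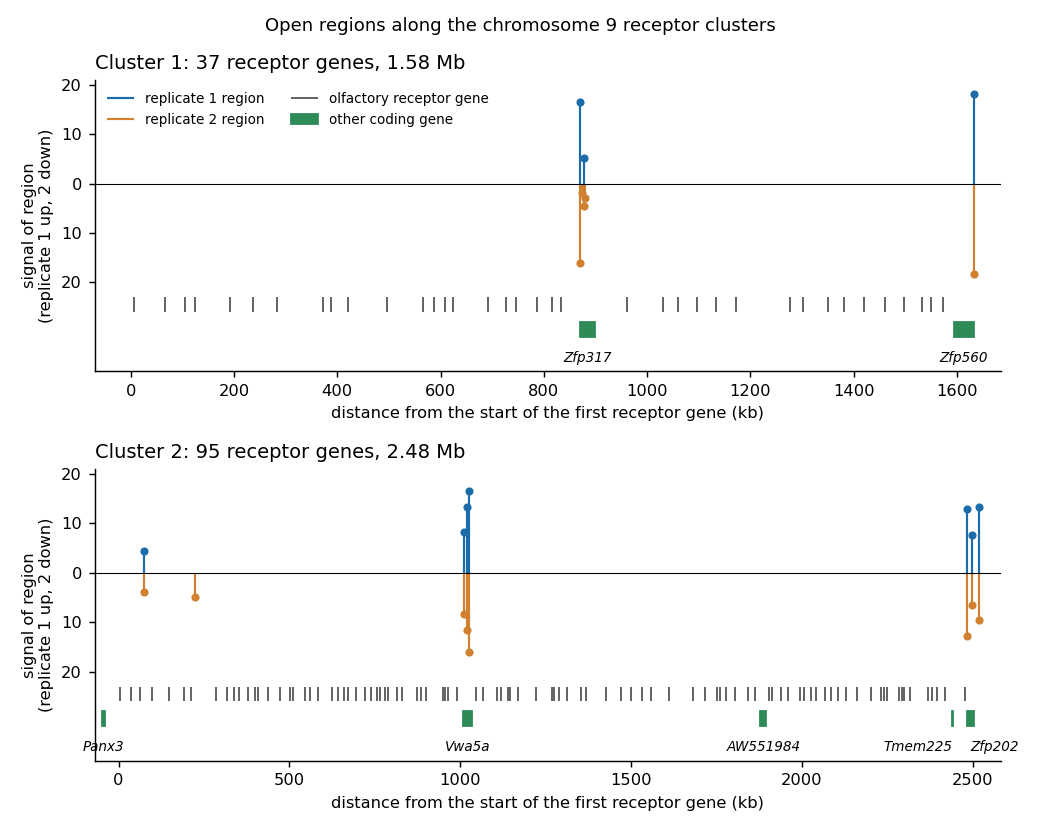
Map of both clusters, with distance from the first receptor gene in kb on the horizontal axis and the signal of each open region on the vertical axis, replicate 1 upward and replicate 2 downward, above ticks for the 132 receptor genes and boxes for other coding genes. The regions gather at Zfp317, Vwa5a and the flanking Zfp560 and Zfp202, and long runs of receptor genes have none.

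The remaining shared region lay outside any annotated gene, at chr9:37783030-37783768 in replicate 1 and chr9:37783089-37783533 in replicate 2. Its signal of 4.43 and 3.84 exceeded only 31.7% and 20.8% of the regions of chromosome 9, with −log10 q of 10.7 and 7.11. Of its bases in replicate 1, 63.3% are marked as repeats in the reference, and only 50.3% of the 50-mers in it occur once in the genome, so much of it has copies elsewhere in the genome. A further 3 regions were in replicate 2 only and none in replicate 1 only. Of these 3, those at chr9:19626284-19626493 (signal 1.81) and chr9:19632091-19632329 (2.92) lay in introns of Zfp317. The other, at chr9:37932631-37932939, was intergenic with a signal of 4.91, a −log10 q of 12.1 and only unique 50-mers, but was not listed in replicate 1. The 100 bases on either side of the summit of each intergenic region are printed because these are the only regions among the receptor genes that belong to no other gene. They come from the GRCm38.p6 plus strand, at chr9:37783179-37783379 (summit of replicate 1) and chr9:37932635-37932835 (replicate 2), and capitals mark a match to TGANTCA, the letters of the AP-1 motif.
Shared intergenic region: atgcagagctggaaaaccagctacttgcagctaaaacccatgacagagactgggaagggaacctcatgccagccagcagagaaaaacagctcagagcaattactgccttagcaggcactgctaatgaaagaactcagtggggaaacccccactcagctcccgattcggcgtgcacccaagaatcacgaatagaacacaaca
Intergenic region of replicate 2: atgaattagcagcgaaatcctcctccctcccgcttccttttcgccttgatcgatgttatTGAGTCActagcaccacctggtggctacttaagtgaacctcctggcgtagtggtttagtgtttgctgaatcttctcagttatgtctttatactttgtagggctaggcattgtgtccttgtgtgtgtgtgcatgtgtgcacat

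Open regions were many times rarer in the clusters than in the rest of the chromosome. In both clusters together there were 1.48 regions per Mb in replicate 1 (95% Poisson limits 0.542 to 3.21, which cover counting error only) and 2.21 in replicate 2 (1.01 to 4.20). The rest of chromosome 9 had 47.3 (46.1 to 48.6) and 43.4 (42.2 to 44.6), a density 32.0 and 19.6 times higher. For shared regions the densities were 1.48 (0.542 to 3.21) and 40.2 (39.1 to 41.4) per Mb, a ratio of 27.2. Cluster 1 had 1.26 regions per Mb in replicate 1 (0.153 to 4.56) and 2.52 in replicate 2 (0.688 to 6.46), and cluster 2 had 1.61 (0.439 to 4.13) and 2.02 (0.654 to 4.70), so the limits of the clusters overlapped in each replicate. Replicate 2 had 3 more regions than replicate 1 in the clusters and fewer in the rest. By bases covered, 0.141% and 0.134% of the clusters was open against 3.37% and 3.24% of the rest, which is 23.9 and 24.2 times more. When regions at the starts of other coding genes were left out, the density of shared regions in the clusters over that in the rest went from 0.0367 to 0.0158.

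**Figure D4:**
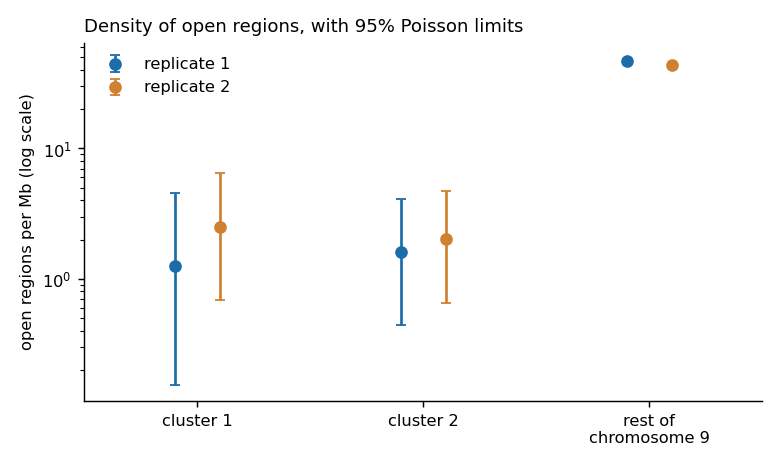
Open regions per Mb (log axis) in cluster 1, cluster 2 and the rest of chromosome 9 for replicates 1 and 2, with 95% Poisson limits as bars. The cluster points lie between 1.26 and 2.52 per Mb and the rest at 47.3 and 43.4, with no overlap of the limits.

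The clusters had 33.5 protein-coding genes per Mb, against 9.17 in the rest of the chromosome. This high density follows from their definition as runs of receptor genes. Of their 136 protein-coding genes, 132 were receptor genes and only 4 were others, so they were poor in other coding genes. The clusters also differed in sequence from the rest. The GC content was 37.8% against 42.9%, repeats made up 48.7% against 31.4% of bases, and 84.4% against 92.0% of 50-mers occurred once in the genome. Around the starts measured, this last difference was small. Receptor genes were measured at the outermost annotated start alone, while regions were sought at every annotated start. Within 1 kb of a start, the median share of unique 50-mers was 98.9% in the receptor genes (61.6% to 100%), 99.3% in other chromosome 9 genes with no open start and 100% in those with one, and 112 of the 132 receptor genes exceeded 90%. The part of GC content, repeats and unique placement in the number of regions was not tested.

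All 132 genes fell into 5 stretches without a shared region. The longest, of 1457 kb from Vwa5a to Zfp202, held 54 of them, Olfr920 to Olfr986, and was the fifth longest of 4711 such stretches on chromosome 9 in shared regions and also the fifth in each replicate. The stretch from Zfp558 to Zfp317 was 1148 kb long with 21 receptor genes (rank 11), and the one from Zfp317 to Zfp560 was 754 kb long with 16 (rank 24). The stretch between the intergenic region and Vwa5a was 934 kb long with 38 (rank 19), and in replicate 2 it was split into 149 kb and 785 kb by the region near Olfr878. The shortest, of 125 kb before the intergenic region, held 3 (rank 107). The median stretch on the chromosome was 7.69 kb. The 4 stretches longer than that of 1457 kb held 5, 3, 2 and 0 protein-coding genes, while the latter held 56, AW551984 and Tmem225 being the ones that are not receptors. Of the 37 stretches over 500 kb, 4 held receptor genes. The next ranked stretch after that of cluster 1, of 1146 kb, held 16 protein-coding genes including Pate4, Pate3 and Pate1, and these were looked up after the values were seen.

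A stretch ends at open regions by definition, and the regions at the outer ends of these lay at starts of coding genes. Zfp558, before cluster 1, had a start signal of 14.6 and 14.5, and Zfp560, after it, 18.2 and 18.2. Tbrg1, before cluster 2, had 9.42 and 9.99, and Zfp202, after it, 12.9 and 12.7. Of the 3 nearest coding genes on each side of each cluster, 9 of 12 had an open start. The share was 65.9% over all protein-coding genes and 78.7% over the other coding genes of chromosome 9, so 9 of 12 is not unusual. The others, Mbd3l1, Muc16 and Panx3, lay on the receptor side of Zfp558 and of Tbrg1 and had none in either replicate. From the first receptor gene of each cluster back to the open start before it, neither list held a region.

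In windows of 500 kb, most of those with receptor genes had few open regions for their number of genes. The 10 windows with a receptor gene start held 0 to 33 shared regions with a median of 1.00, and 5 held none. The 28 windows without a receptor gene but with 10 or more protein-coding genes held 8 to 70 with a median of 46.0, and none was empty. The 41 windows with no protein-coding start held 0 to 23 with a median of 0. A comparison at like GC content was added after the data were seen: the 40 windows without receptor genes and with a GC content of at most 39.4%, the highest among the 6 windows with 10 or more receptor genes, held 0 to 26 with a median of 1.00, and 18 held none. The 8 windows with receptor genes at or below the same GC content held 0 to 4 with a median of 0, and 5 held none. Low counts were thus common in both kinds of window at this GC content, and the difference between them was not tested.

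**Figure D5:**
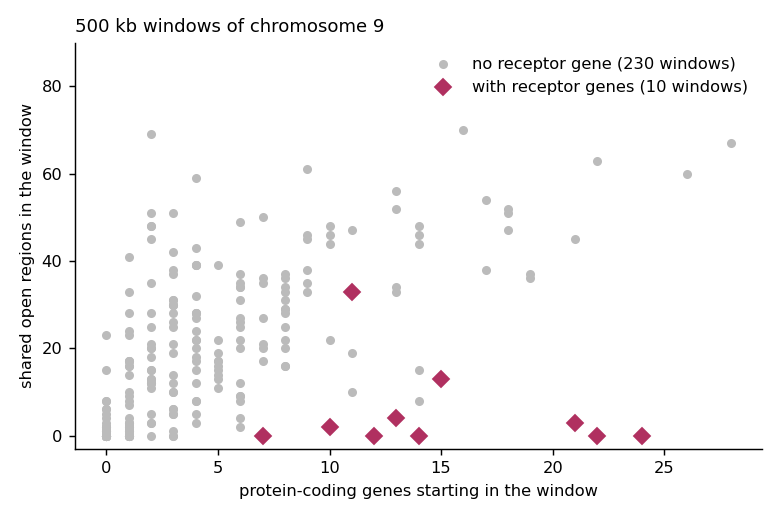
Shared open regions (vertical axis) against protein-coding genes starting in the window (horizontal axis) for 500 kb windows of chromosome 9, grey circles for 230 windows without and diamonds for 10 windows with receptor genes. Grey windows with 10 or more genes hold 8 to 70 regions, while the diamonds have a median of 1.00.

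Receptor genes on other chromosomes were also mostly closed. Of the 1003, 36 (3.59%) had a shared region within 1 kb of a start, 37 in each replicate taken alone, and 182 (18.1%) held one in the gene and 20 kb, against 0 and 5 of the 132 on chromosome 9. Whether the difference between chromosomes exceeds chance was not tested. In other families of chemosensory receptors, a shared region lay within 1 kb of a start of 2 of 209 vomeronasal genes of the Vmn1r family (0.957%), 0 of 120 of the Vmn2r family and 0 of 15 trace amine-associated receptor genes. Within the gene and 20 kb, the counts were 13 (6.22%), 10 (8.33%) and 7 (46.7%), in the same order, and the differences between families were not tested. Of 23 clusters of at least 10 olfactory receptor genes across the genome, the shared regions per Mb ran from 0 to 66.4 with a median of 2.44. Clusters 1 and 2 of chromosome 9 ranked 9 and 10 from the lowest. The family thus holds open starts in other places, such as Olfr433 on chromosome 1 (signal 11.2 and 11.5) and Olfr552 on chromosome 7 (13.9 and 12.8), chosen after their values were seen. At Olfr56 on chromosome 11 (3.27 and 2.85) the same region also lies at a start of Ifi47, an interferon-inducible GTPase gene.

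Some of the genes that work with these receptors had an open start and some did not, while no receptor gene of chromosome 9 had one. Of 15 genes of olfactory signal transduction, 10 (66.7%) had an open start, a share near the 65.9% of all protein-coding genes. Adcy3, the adenylyl cyclase of olfactory cilia, had a signal of 16.3 and 15.9, and Gnal, the stimulatory G protein alpha subunit of olfactory neurons, 10.5 and 11.1. Cngb1, a subunit of the cyclic nucleotide-gated channel, was weaker at 2.77 and 3.99. Its partner subunits Cnga2 and Cnga4, the chloride channel gene Ano2, Omp, which marks mature olfactory neurons, and Stoml3 had none. Of 15 genes of receptor choice and trafficking, 13 (86.7%) were open, among them Lhx2 (5.91 and 6.15), Ldb1 (6.91 and 6.62), Ebf1 (8.36 and 8.60) and Kdm1a, the histone lysine demethylase LSD1 (8.31 and 8.40). Rtp1 and Rtp2, which help receptors reach the cell surface, had no region at a start. All 14 genes of H3K9 heterochromatin were open, such as Setdb1, an H3K9 methyltransferase (18.3 and 15.5), Suv39h1, another (16.2 and 15.5), and Cbx5, coding for the heterochromatin protein HP1 alpha (16.5 and 17.2). Of the 8 markers of olfactory sensory neurons, 4 were open (Gnal, Adcy3, Cngb1 and Gng13), and Omp, Cnga2, Cnga4 and Rtp1 were not. All 8 markers are also in the lists above, and all but Rtp1 are in the signalling list. Markers of other cells were open at 2 of 5 for B cells (Pax5 and Ebf1), 1 of 4 for myeloid cells (Cd14) and 0 of 3 for hepatocytes. An open start is not a measure of transcription, and none was measured here.

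The receptor promoters were searched on both strands for letters of 6 motifs, none of which contains another. TAATTA, the core bound by LIM homeodomain proteins such as Lhx2, was in 28 of 110 promoters (25.5%), in 17.7% of those of receptor genes elsewhere and in 4.48% of all 20150 promoters. Receptor promoters are richer in A and T, as given above, and the part of this in the counts of TAATTA and of the other motifs was not tested. TGANTCA of AP-1 was in 13 (11.8%) against 1410 of the 20150, TGTGGTTT of RUNX factors in 5 (4.55%) against 1.55%, and CAGGAAGT of ETS factors in 2 (1.82%) against 3.31%. In receptor genes elsewhere these 3 were in 13.8%, 4.36% and 1.21% of promoters, in the same order. The O/E motif of Ebf factors, written TCCC, any pair of bases and GGGA, was in 0 against 0.993%, and the CTCF core in 0 against 2.39%. In receptor genes elsewhere they were in 0.606% and 0.242%. In the 6 shared regions of the clusters, around the summit, AP-1 letters were in 2 (33.3%), both at Vwa5a, beside 26.2% of all 4712 shared regions of chromosome 9, and TAATTA in 1 (16.7%), at the third Vwa5a region, beside 2.02%. A match is a count of letters, not a binding site.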

How the data were processed

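ATAC-seq regions of T-helper 1 cells were taken from 1 deposited list per replicate, derived from that replicate's alignments alone, on build mm10, per the labels. Which aligner and region caller made them is not given in the sources used here. Names of regions include ASTARR, insert, masked, dedup and sorted, and no source says what these words mean. Replicate numbers are those of the labels. The authors deposited a signal value per region, whose reference is not stated, and −log10 p and −log10 q, with a lowest −log10 q of 1.01 and 1.00. The display score the authors deposited was not used. These values describe regions within 1 list only.

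Genes, starts and sequence came from GENCODE M21 and GRCm38.p6, RefSeq promoters from the RefSeq table of that build, and all calculations from Python 3.11.15 with numpy 2.4.6, pandas 2.3.3, scipy 1.17.1 and numba 0.67.0, with figures from matplotlib 3.10.9. Regions on chromosomes 1 to 19, X and Y were used and regions elsewhere left out. Overlap of at least 1 bp made a region shared, and a shared region belonged to a cluster when its midpoint lay in it. A start is any annotated GENCODE transcript start of the gene, except in the promoter sequences, which use RefSeq starts. Uniqueness was counted for 50-mers against the same chromosomes. The overlap and 50-mer counts were tested on simulated data. Poisson limits are exact at 95%. There is 1 group, so nothing was compared between conditions and no p-value is given.

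The members, gene lists, motifs and rules were chosen with earlier results of these data known. Named are receptor genes with a region within 1 kb of a start or in the gene and 20 kb, those just outside these limits, those nearest to and farthest from a region, the ends of each cluster, other coding genes in or beside the clusters, and genes of the lists. Other named genes, such as the examples among receptor genes elsewhere, are said to be chosen once values were known. Alternatives were a stricter q, a reciprocal overlap, each replicate alone, the 50000 strongest regions of each list, other windows, coding transcript starts, other cluster gaps, all positions in place of assembled ones, and the density without regions at starts of other coding genes.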

Additional observations from a re-analysis of the deposited data

How the results depend on the processing

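The count of 0 receptor genes of chromosome 9 with a shared region near a start held under all 8 alternatives: a −log10 q of at least 5, a reciprocal overlap of 50%, either replicate alone, the 50000 regions of lowest p in each list, windows of 500 bp or 2.5 kb, and coding transcript starts alone. The number with a shared region in the gene and 20 kb was 5 and went to 3 with the 50000 strongest regions, to 0 in the gene body alone and to 10 with 50 kb, and was 5 to 6 with a replicate left out. The density of the clusters over the rest was 0.0367, ran from 0.0312 to 0.0510 with a replicate left out, and was 0.0158 without regions at starts of other coding genes. It stayed between 0.0253 and 0.0431 under the other alternatives. The open share of the clusters was 0.142%, ran from 0.134% to 0.141% with a replicate left out, and was 0.103% with the 50000 strongest regions and 0.108% with cluster gaps of at most 100 kb. The share of receptor genes elsewhere with an open start was 3.59% and was 3.29% at −log10 q of at least 5, 3.39% with reciprocal overlap, 2.39% with the 50000 strongest regions, 2.29% within 500 bp, 5.78% within 2.5 kb and 3.69% with either replicate left out. No paired analysis was possible because there is 1 group. The cause of these changes was not tested. Counts rest on lists cut at the authors' threshold at unknown depth, so a region below it would not be seen.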
